A study of Mus musculus with 30 samples.

Results

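Gene expression was compared between exposed bone libraries with a high and with a low level of S100a8, a calcium-binding protein gene that neutrophils transcribe strongly. The 13 exposed bone libraries were split at an S100a8 level of 1000 CPM (counts scaled to a library total of 1000000). This put 5 libraries in the S100a8-high class, which may be read as marrow-rich, and 8 in the S100a8-low class, out of 30 libraries in the whole series. The classes were chosen by a measured gene of the same libraries. Differences between them are therefore given as a description with no test, and S100a8 is left out of every list and count. The value nearest to the limit was 2275 CPM on the high side (Brx50 replicate 3) and 166 CPM on the low side (Brx07 replicate 2), so that no library lay near it.

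The series measured RNA of GFP-negative stromal cells sorted from bone, lung and brain, in 23 libraries from tissue exposed to a circulating tumour cell (CTC) line and 7 from tumour-free control mice. For exposed tissue, 100000 CTCs carrying GFP and luciferase had been injected into the left ventricle of the heart of female NSG mice of 6 to 8 weeks, which carried slow-release estrogen. NSG mice are immunodeficient and lack mature T, B and natural killer cells. Each library came from 50000 sorted cells, and the labels name no selection other than the removal of GFP-positive cells. The S100a8-high class held Brx07 replicate 1, Brx50 replicates 2 and 3, and Brx68 replicates 4 and 5. The S100a8-low class held Brx07 replicate 2, Brx50 replicates 1 and 4, and Brx68 replicates 1, 2, 3, 6 and 7. Beside them stand 3 bone control libraries from tumour-free mice. The sources used here do not say whether the control mice carried estrogen. Nothing in the labels says that libraries came from separate mice, so that p-values measure only the spread between libraries, which may be technical. The labels place Brx07 replicate 1 in the leg and Brx07 replicate 2 in the skull, under the same label code. For the other 11 exposed libraries no bone is named.

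Library size and tumour line, which the rule did not use, were compared between the classes first. Total counts were 10562947 ± 1845972 (SD, n = 5) in the S100a8-high class and 9989251 ± 2930911 (SD, n = 8) in the S100a8-low class, a difference of 573695 (exact two-sided permutation test, p = 0.709). High and low libraries numbered 1 and 1 for Brx07, 2 and 2 for Brx50, and 2 and 5 for Brx68 (chi-square 0.627, exact permutation test, p = 0.782). Adjusted over these 2 tests by Benjamini-Hochberg, both exact p were 0.782. The bone controls held from 10625392 to 12989953 counts, with S100a8 from 3024 to 4682 CPM.

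Several libraries stood apart before any comparison of the classes. Summed over 13 skeletal muscle genes, Brx68 replicate 6 (S100a8-low) held 31511 CPM against 229 to 1918 CPM in the other 7 S100a8-low libraries. Summed over 7 olfactory neuron genes, Brx07 replicate 2 (S100a8-low, skull) held 2933 CPM, and Brx50 replicates 2 and 3 (S100a8-high) held 753 and 742 CPM. Photoreceptor genes were highest in the same 3 libraries, at 209, 411 and 1131 CPM in that order. Brx68 replicates 1 and 6 had the fewest genes detected, 14769 and 16256, against 21233 to 25688 in the other 11 libraries.

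Bone marrow is the site where neutrophils are made. A neutrophil precursor packs its granules in a fixed order as it matures. Serine proteases and myeloperoxidase go into the primary (azurophilic) granules of promyelocytes, lactoferrin and cathelicidin into the secondary granules of myelocytes, and gelatinase into later granules. The precursors divide up to the myelocyte stage, and chemokine and formyl peptide receptors come up last, in the mature cell. Around the marrow stand bone-forming osteoblasts, bone-resorbing osteoclasts, periosteum, vessels and fibroblasts that lay down fibrillar collagen.

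Promoter sequences are shown for 4 genes, a pair of granule genes with the C/EBP or PU.1 letters that myeloid factors are known to bind, and a pair of genes of vessels and matrix with the AP-1 letters. They run from 250 bases before to 50 after the start that RefSeq gives, which can differ from the gene start of the annotation used for coordinates below, 5′ to 3′ on the strand of the gene, from RefSeq with build GRCm38.p6. Capitals mark TTGCNNAA (C/EBP) and GAGGAA (PU.1) in the first pair, and TGANTCA (AP-1) and GGAATG (TEAD) in the second, on either strand. PU.1 letters in the second pair are left in lower case. No matches overlapped. The Ngp promoter (chr9:110419558-110419857, plus strand), the Mpo promoter (chr11:87793534-87793833, plus strand), the Sele promoter (chr1:164047984-164048283, plus strand) and the Mmp13 promoter (chr9:7272264-7272563, plus strand) read as follows.
Ngp: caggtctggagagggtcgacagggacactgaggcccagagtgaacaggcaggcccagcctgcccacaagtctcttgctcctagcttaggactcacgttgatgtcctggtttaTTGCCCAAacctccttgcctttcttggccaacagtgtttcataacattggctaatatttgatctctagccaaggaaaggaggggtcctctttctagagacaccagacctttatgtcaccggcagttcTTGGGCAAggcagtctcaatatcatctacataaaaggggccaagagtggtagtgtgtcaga
Mpo: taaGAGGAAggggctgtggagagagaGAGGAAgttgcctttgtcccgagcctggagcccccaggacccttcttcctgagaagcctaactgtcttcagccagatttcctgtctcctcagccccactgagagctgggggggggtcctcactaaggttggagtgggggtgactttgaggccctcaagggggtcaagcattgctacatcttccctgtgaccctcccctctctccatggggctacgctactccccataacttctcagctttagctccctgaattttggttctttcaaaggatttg
Sele: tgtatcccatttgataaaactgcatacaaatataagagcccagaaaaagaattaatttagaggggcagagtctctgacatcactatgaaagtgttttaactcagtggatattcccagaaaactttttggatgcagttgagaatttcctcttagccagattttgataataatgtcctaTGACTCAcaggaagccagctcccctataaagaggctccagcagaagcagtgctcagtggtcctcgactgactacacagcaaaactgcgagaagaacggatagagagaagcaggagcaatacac
Mmp13: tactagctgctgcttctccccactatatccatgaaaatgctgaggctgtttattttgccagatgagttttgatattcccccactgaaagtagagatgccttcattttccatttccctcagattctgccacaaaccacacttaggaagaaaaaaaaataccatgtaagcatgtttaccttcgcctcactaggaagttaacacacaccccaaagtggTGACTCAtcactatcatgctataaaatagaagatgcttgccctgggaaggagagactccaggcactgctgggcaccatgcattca

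The table held promoters of 11 of the 12 genes named by size of difference for the high class and of 10 of the 12 for the low class. The C/EBP letters occurred 2 times in the Ngp promoter and the PU.1 letters 2 times in that of Mpo, and the AP-1 letters 1 time each in those of Sele and Mmp13. The PU.1 letters also occurred 1 time in the Sele promoter, and in 4 of 10 promoters of the named low-class genes against 6 of 11 of the high class. The C/EBP letters were in 2 of 10 and 4 of 11 of these, and the AP-1 letters in 3 of 10 and 0 of 11. The promoters of Camp and Chil3 held neither the C/EBP nor the PU.1 letters, so the 4 shown do not stand for all named genes. Of all 27025 RefSeq promoters of this length, 10.8% held the C/EBP letters, 28.3% the PU.1 letters, 7.93% the AP-1 letters and 14.6% the TEAD letters. Of the 14858 that belong to measured genes, 9.09%, 27.4%, 6.21% and 12.8% held them in that order. Among the genes that lay higher in every S100a8-high library than in every S100a8-low library, 906 had a promoter in the table. The C/EBP letters were in 12.03% of those and the PU.1 letters in 31.8%. Among the genes with the opposite order, 489 had a promoter, of which 6.34% held the C/EBP letters, 30.7% the PU.1 letters, 5.93% the AP-1 letters and 16.2% the TEAD letters. The AP-1 letters were in 4.30% and the TEAD letters in 10.04% of the 906. These are matches of letters in these windows and not measured binding, and the 4 motifs were chosen after the values were seen.

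Of 24221 measured genes, 1248 (5.15%) were higher in each S100a8-high library than in any S100a8-low library, and 698 (2.88%) were lower in each. In the remaining 22275 genes the classes overlapped. Without Brx50 replicate 3 the 698 became 1121, and without Brx68 replicate 5 it became 1165. Such a count cannot fall when a library is left out. Since the split used a gene of the same libraries, the 5.15% and 2.88% are the background against which each list below is to be read, and no list is tested. The median over all measured genes of the difference between class means of log2(CPM + 1), high minus low, was -0.03. A pair of values joined by "against" gives class means, S100a8-high (n = 5) first and S100a8-low (n = 8) second, with SD after ±. In bulk libraries, fewer cells of a type and less RNA per cell cannot be told apart.

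Among the 39 gene lists, the median difference was widest in genes of neutrophil granules. All 12 measured genes of secondary and tertiary granules were higher without overlap, as were 6 of 7 genes of primary granules and 14 of 15 genes of mature neutrophils. The 3 lists together took 4.36% ± 1.43 (SD, n = 5) of the counts in the S100a8-high class, 0.0956% ± 0.0925 (SD, n = 8) in the S100a8-low class and 4.36% ± 0.572 (SD, n = 3) in the controls. Genes of early, middle and late neutrophil stages were thus all higher in the same 5 libraries, and the controls lay with them. Neutrophils transcribe S100a8 strongly, so that the place of these lists says little beyond the rule.

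In the order in which the classes were listed above, the S100a8-high libraries held 919.9, 874, 574, 1563 and 185 CPM of Elane (chr10:79886247-79888215), the neutrophil elastase of primary granules. The S100a8-low libraries ran from 0 to 26.0 CPM with a median of 2.604 CPM. Brx68 replicate 4 was highest and Brx68 replicate 5 lowest among the high libraries, and even the lowest stood above every low one. The controls held 1174, 784 and 949 CPM, inside the range of the high class. The difference of means of log2(CPM + 1) was 7.39 (SE 0.81). Mpo, the myeloperoxidase gene (chr11:87793581-87804413), had the same order of libraries, with 689, 599, 469.5, 1051 and 137 CPM in the high class and 0 to 17.7 CPM in the low class (difference 7.27, SE 0.74). Prtn3, proteinase 3, lies beside Elane on chromosome 10 and averaged 541 ± 306 against 3.51 ± 3.36 CPM (SD, n = 5 and n = 8). Ctsg, cathepsin G, averaged 285 ± 152 against 1.89 ± 2.12 CPM. Over the 7 primary granule genes the median difference was 6.81, and the summed level ran from 687 to 4372 CPM in the high class, from 0.792 to 54.5 CPM in the low class and from 2194 to 3182 CPM in the controls. The summed level of Brx68 replicate 5, 687 CPM, was the lowest of the high class.

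Ngp, neutrophilic granule protein (chr9:110419747-110423012), had the widest difference of all named genes, 8.48 (SE 1.03) on the log2(CPM + 1) scale. Its level was 10522, 13929, 6958, 10003 and 5133 CPM in the high libraries. In the low libraries it ran from 0 to 247 CPM with a median of 45.9 CPM. Brx68 replicate 6 had no count of Ngp, and Brx07 replicate 2 held the most of the low class, 247 CPM. Controls held 7930.1, 10261 and 9169.5 CPM. Camp, the cathelicidin antimicrobial peptide, averaged 2130.2 ± 831 against 13.2 ± 17.3 CPM (difference 8.25, SE 0.79). Ltf, lactoferrin, averaged 5995 ± 1549 against 326 ± 484 CPM, and Lcn2, the iron-siderophore binding lipocalin, 2741 ± 691 against 51.7 ± 42.6 CPM. Chil3, Cd177 and Mmp8, which code for a chitinase-like protein, a neutrophil surface antigen and the neutrophil collagenase, had differences of 7.59 (SE 0.83), 7.00 (SE 0.68) and 6.72 (SE 0.54). Mmp9, the gelatinase of the late granules, averaged 796 ± 179 against 83.6 ± 55.6 CPM. The 12 genes had a median difference of 6.15.

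Of the genes of mature cells, S100a9 forms calprotectin with the protein that set the classes, so that its place says little beyond the rule. It held 13729.6, 17889.5, 6728, 10426 and 6179.9 CPM in the high libraries and 2.69 to 414 CPM in the low ones (difference 7.53, SE 0.84). Retnlg, a resistin-like gene of mature neutrophils, averaged 910.2 ± 309.9 against 11.7 ± 12.9 CPM (difference 6.83, SE 0.65). Mxd1, a MAX partner of cells that have left the cycle, averaged 1285 ± 352 against 91.1 ± 45.8 CPM, and Hdc, which makes histamine, 813 ± 281 against 46.2 ± 33.6 CPM. The median difference over the 15 genes was 4.75. Receptors of the mature cell were part of it, with Cxcr2 at 170.3 against 3.69 CPM and Csf3r, the G-CSF receptor, at 415 against 18.7 CPM. Members named here and below outside the 4 most abundant of a list were chosen after their values were seen.

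**Figure D1:**
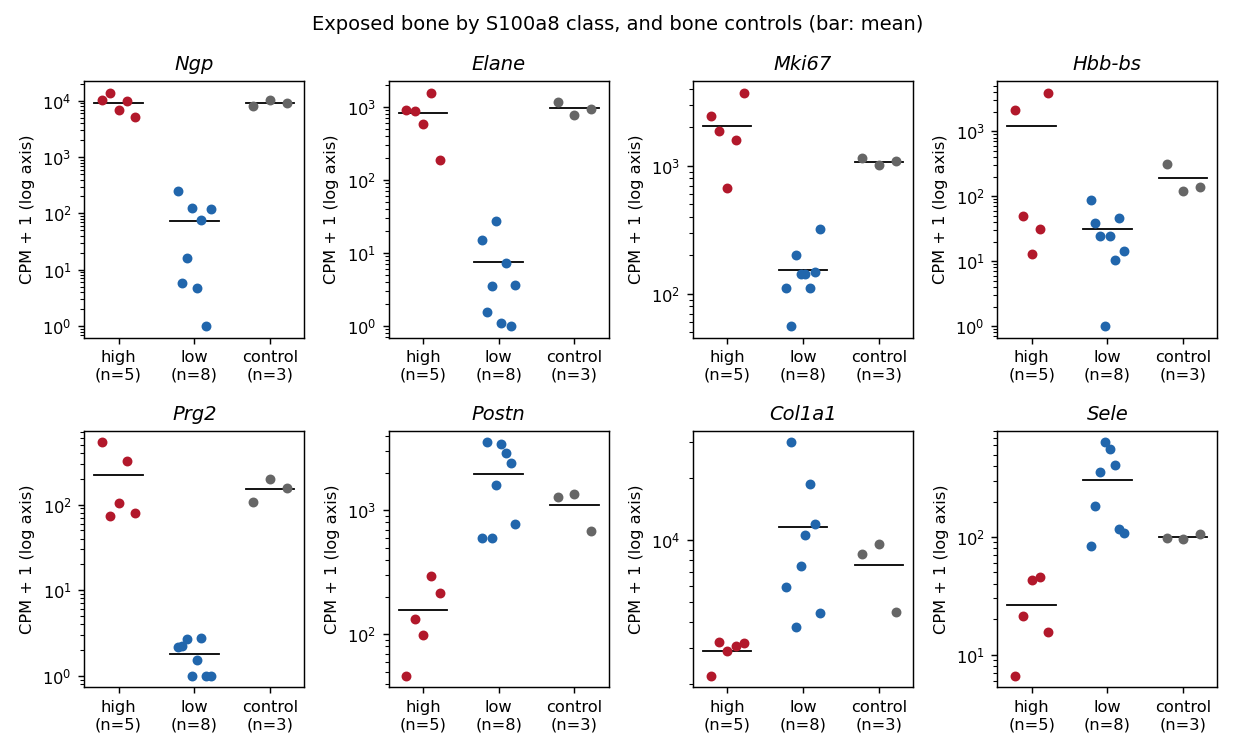
CPM + 1 on a log axis for 8 genes, with 1 point per library of the S100a8-high class (n = 5, red), the S100a8-low class (n = 8, blue) and the bone controls (n = 3, grey), and a bar at the mean of each. The classes do not overlap in Ngp, Elane, Mki67, Prg2, Postn, Col1a1 and Sele, while 3 of the 5 high libraries of Hbb-bs lie inside the range of the low class.

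Transcription factors of the granulocyte line did not all follow. Cebpe, needed for secondary granules, was 55.9 ± 24.4 CPM (SD, n = 5) in the high class and 1.17 ± 1.28 CPM (SD, n = 8) in the low class. Gfi1, a repressor that favours granulocytes over monocytes, was 22.4 against 0.339 CPM, and Spi1, which codes for PU.1, 199 against 17.8 CPM. Cebpb also lay higher without overlap, at 383 ± 164 against 149 ± 56.7 CPM. Cebpa, which acts at the entry to the line and also in fat cells, overlapped at 70.9 ± 33.2 against 89.0 ± 41.0 CPM, and Cebpd overlapped at 162 ± 62.1 against 268 ± 62.6 CPM. That makes 4 of 6 factors without overlap.

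Other granulocytes were split in the same direction. Of 8 eosinophil genes, 6 were higher without overlap. Prg2, the major basic protein of eosinophil granules, held 531, 72.8, 104, 321 and 78.0 CPM in the high libraries and 0 to 1.79 CPM in the low ones (difference 6.60, SE 0.62). Epx, eosinophil peroxidase, averaged 21.8 ± 19.2 against 0.0997 ± 0.166 CPM. No count of the ribonuclease gene Ear1 was found in the low class, where it was at least 62.3-fold lower, taking 3 counts over the class as the limit. Among 8 genes of mast cells and basophils, only the basophil proteases Prss34 (83.2 ± 52.4 against 0.244 ± 0.506 CPM) and Mcpt8 (33.9 ± 19.8 against 0.194 ± 0.233 CPM) were apart without overlap. The mast cell genes Cpa3 (24.9 ± 11.3 against 16.6 ± 18.7 CPM), Tpsb2 (19.1 ± 15.96 against 19.7 ± 24.7 CPM) and Mcpt4 (13.0 ± 9.33 against 17.8 ± 19.6 CPM) overlapped.

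Monocyte and macrophage genes separated only in part, 3 of 16 without overlap, with a list median of 0.51 that was -0.025 as edgeR fitted fold changes. Lyz2, the lysozyme of myeloid cells, averaged 3460.4 ± 1152 against 435 ± 449 CPM. Cd14, a co-receptor for bacterial lipopolysaccharide, held 1591, 2607, 1904, 2293 and 692 CPM in the high libraries and 55.4 to 543 CPM in the low ones. Ccr2, the chemokine receptor of inflammatory monocytes, averaged 91.6 ± 56.4 against 8.83 ± 7.46 CPM. Csf1r, the receptor on which macrophages depend, overlapped at 189 ± 68.2 against 126 ± 90.0 CPM. Neutrophils also transcribe Lyz2 and Cd14. Of 11 dendritic cell genes, Irf8 alone was higher without overlap (78.3 ± 15.2 against 33.9 ± 9.55 CPM), and Cd74, the invariant chain of class II antigen presentation, overlapped at 367 ± 207 against 189 ± 242 CPM.

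Neutrophil genes could be foreseen to follow a split on S100a8, and genes of other marrow cells followed it less evenly. Of 12 progenitor genes, 4 were higher without overlap, and the summed list overlapped, at 552 to 771 CPM in the high class and 513 to 871 CPM in the low class. Myb, a factor of dividing progenitors, averaged 129.8 ± 54.4 against 11.6 ± 11.3 CPM, and Cdk6 107 ± 49.7 against 30.3 ± 7.76 CPM. Flt3, a receptor of lymphoid-primed progenitors, was 20.2 against 1.87 CPM. Kit, the stem cell factor receptor, overlapped at 94.5 ± 28.5 against 47.2 ± 10.8 CPM. Cd34, which vessels transcribe too, was 153 ± 85.8 against 333 ± 171 CPM. The classes are therefore called by S100a8 here.

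Red cell genes varied widely among the high libraries themselves. Hbb-bs, an adult beta globin, was 2089, 47.8, 11.8, 30.0 and 3927 CPM there and 0 to 86.9 CPM in the low class, so that Brx07 replicate 1 and Brx68 replicate 5 stood far above the other 3 and those 3 lay inside the range of the low class. The controls held 317, 121 and 138 CPM. Globin copies such as Hba-a1 and Hba-a2 share reads and are uncertain singly. Slc4a1, the anion exchanger of the red cell membrane, averaged 1181 ± 1844 against 9.35 ± 16.1 CPM and overlapped. Only 4 of 15 measured genes were higher without overlap, Car1, Rhag and Klf1 among them. Klf1, the factor that turns on beta globin, was 58.9 ± 62.2 against 1.78 ± 2.62 CPM. The erythroid median was 3.63, and it was 5.13 within Brx68 alone and 0.92 within Brx50 alone.

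Platelet genes overlapped and lymphocyte genes separated in part. None of 7 measured megakaryocyte genes was apart, with Pf4, platelet factor 4, at 3.32 ± 1.91 against 4.52 ± 5.29 CPM and Itga2b at 26.1 ± 7.04 against 24.4 ± 28.8 CPM. Of 10 measured lymphocyte genes, 2 were higher without overlap, and their summed level was 27.6 to 96.0 CPM in the high class and 3.26 to 27.5 CPM in the low class, also without overlap. The list median was 0.22, and -0.13 within Brx50 alone. Nkg7, a granule protein of cytotoxic cells, was 46.4 ± 26.8 against 0.543 ± 1.16 CPM and on average made up most of the high-class sum. Cd79b, a B-cell receptor chain, was 3.38 ± 1.24 against 0.529 ± 0.333 CPM. Cd3e of T cells was 2.17 ± 1.63 against 2.45 ± 2.32 CPM. The mice lack mature lymphocytes, and 6 listed genes, Ms4a1 and Pax5 among them, had too few counts to be measured.

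Genes of dividing cells were higher in the S100a8-high class, 17 of 19 without overlap, with a median difference of 2.79. Mki67, the Ki-67 proliferation marker (chr7:135689784-135716361), held 2449.6, 1872, 675, 1589 and 3738 CPM in the high libraries. The low libraries ran from 54.9 to 321 CPM with a median of 141 CPM. Brx68 replicate 5, which was lowest in primary granule genes, was highest in Mki67, and the controls held 1148, 1009 and 1087 CPM. The difference was 3.70 (SE 0.48). Top2a, the topoisomerase of mitotic cells, averaged 515 ± 166 against 60.5 ± 39.7 CPM, and the replication helicase subunits Mcm6 and Mcm3 averaged 227 ± 80.7 against 36.8 ± 10.4 CPM and 198 ± 64.5 against 32.3 ± 13.2 CPM. Brx68 replicate 5 and Brx07 replicate 1 had the highest cell cycle sums, 6982 and 5339 CPM. They also had the highest sums of red cell genes, 15826 and 7468 CPM. Which cells were dividing was not tested.

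**Figure D2:**
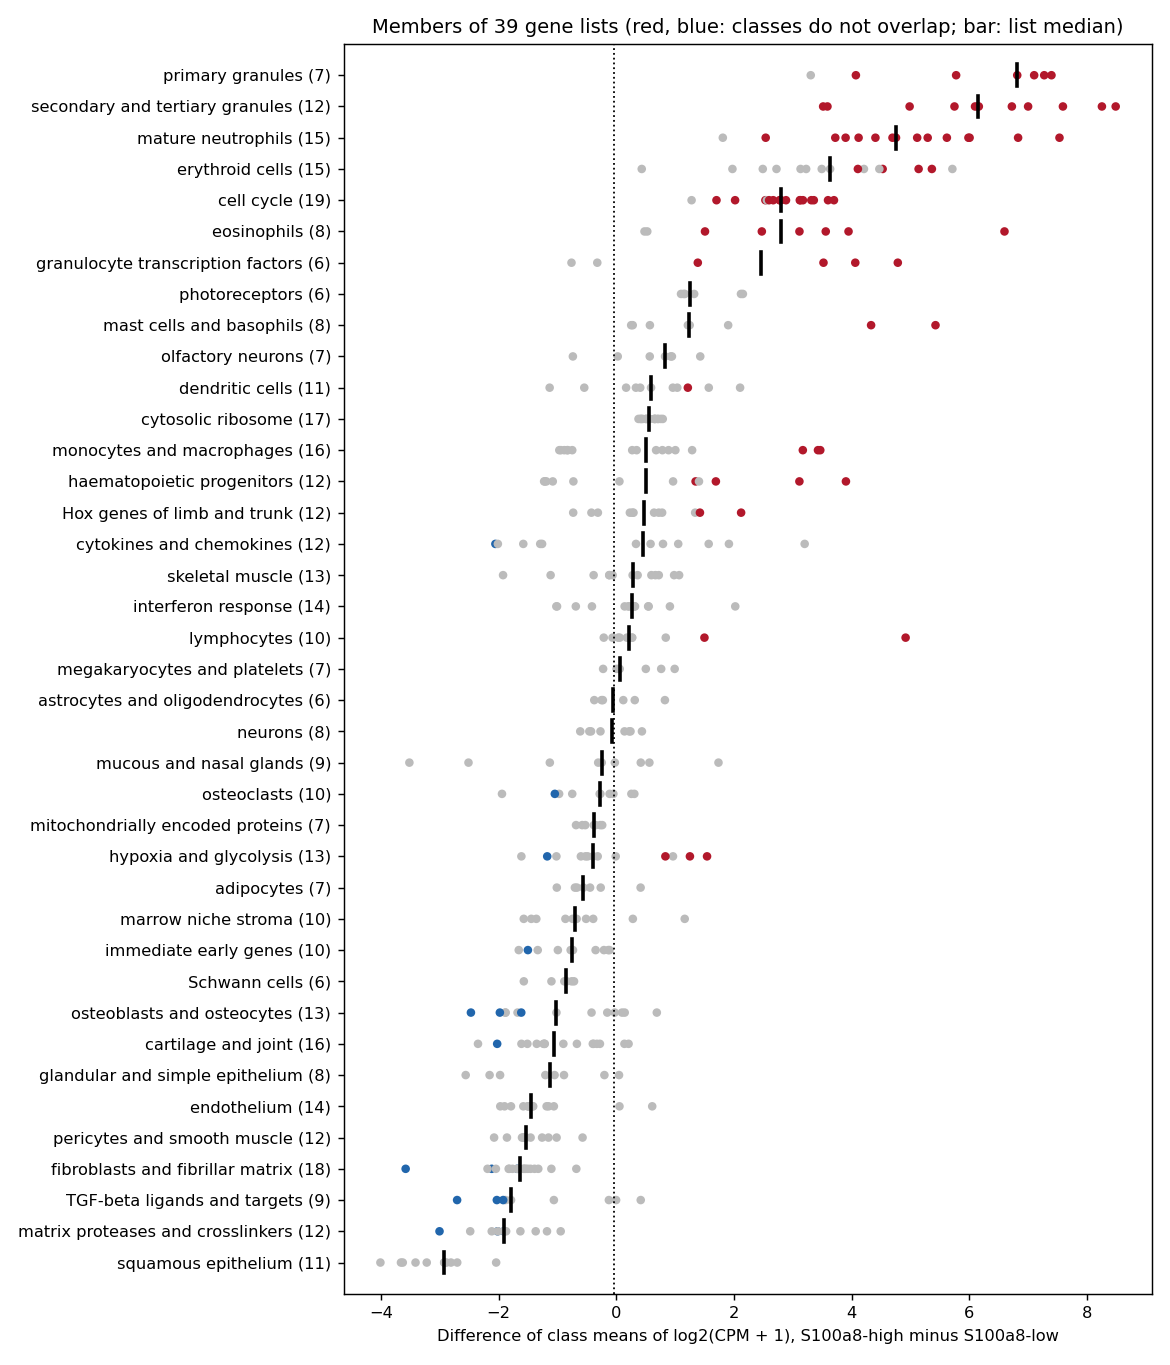
Difference between class means of log2(CPM + 1), S100a8-high (n = 5) minus S100a8-low (n = 8), with 1 point per measured gene of 39 gene lists, the number of measured genes after each name, a bar at the list median and a dotted line at the median of all measured genes (-0.03). Red and blue points are genes whose classes do not overlap. Primary granules have the highest median (6.81), and squamous epithelium has the lowest (-2.93, but -0.27 within Brx50 alone) with no gene free of overlap.

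The S100a8-low class was higher in genes of fibroblasts and fibrillar matrix. All 18 had a higher mean of log2(CPM + 1) there, with a median of -1.63, but only 3 were apart without overlap, Col1a1, Col5a2 and Postn. Summed, the list ran from 7776 to 19391 CPM in the high class and from 16896.5 to 98418 CPM in the low class, with overlap. Col1a1, the main chain of collagen I (chr11:94936224-94953042), held 2198, 3203, 2884, 3054 and 3183 CPM in the high libraries. The low libraries ran from 3791 to 29805 CPM with a median of 9079 CPM, and the controls held 8577, 9601 and 4499.7 CPM, inside the low range. The difference was -1.68 (SE 0.38). Postn, periostin, a matrix protein of periosteum and of stroma around tumours (chr3:54361109-54391037), averaged 157 ± 98.2 against 1978 ± 1246 CPM (SD, n = 5 and n = 8, difference -3.58, SE 0.61), and the controls held 1279, 1345 and 678 CPM. Col3a1 averaged 1697 ± 797 against 8779 ± 6058 CPM, Col1a2 2039 ± 539 against 7890.2 ± 5564 CPM and fibronectin Fn1 2098 ± 486 against 4351 ± 3256 CPM, all with overlap.

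Genes that remodel matrix were higher in the same class. In the 12 genes of matrix proteases and crosslinkers the median was -1.91, and 3 lay apart. Mmp13, the collagenase of bone and cartilage (chr9:7272514-7283331), averaged 41.1 ± 18.5 against 387 ± 245 CPM (difference -3.01, SE 0.58). Mmp14, a membrane collagenase, averaged 82.6 ± 28.5 against 352 ± 158 CPM, and the protease inhibitor Timp3 212 ± 155 against 680.4 ± 215 CPM. Summed, this list ran from 528 to 1670.4 CPM in the high class and from 1755 to 5536 CPM in the low class, without overlap. Of 9 ligands and targets of TGF-beta, the growth factor that drives matrix synthesis, 3 lay higher in the low class without overlap. Among them were the ligands Tgfb2 (17.3 ± 8.72 against 70.7 ± 25.3 CPM) and Tgfb3 (32.5 ± 14.2 against 128 ± 58.9 CPM). The targets Skil (388 ± 161 against 367 ± 105 CPM) and Tgfbi (229 ± 35.1 against 268 ± 93.5 CPM) overlapped. Over the 9 genes the median was -1.79, with 8 lower and 1 higher in the high class. Their sums of 959 to 1330 CPM in the high class and 1318 to 3774 CPM in the low class overlapped.

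By size of difference, the 12 genes named for the S100a8-low class were Krt71, Postn, Tnn, Sele, Sfrp2, Lrrc15, Lgr5, Ccn4, Mmp13, Kif26b, Chl1 and Pappa2. Krt71, a keratin of the hair root sheath, had no count in any high library and 0.274 to 407 CPM in the low ones, where its mean was at least 1499.9-fold higher, taking 3 counts over the class as the limit. That mean rests on a few libraries, since the median of the low class was 8.13 CPM. Tnn, tenascin W of the periosteum, averaged 109 ± 71.1 against 1225 ± 934 CPM (difference -3.52, SE 0.76). Sele, E-selectin, which activated vessel walls show to passing leukocytes (chr1:164048234-164057677), held 5.61, 20.4, 42.3, 44.9 and 14.4 CPM in the high libraries and ran from 83.1 to 636 CPM with a median of 268 CPM in the low ones (difference -3.48, SE 0.66). The controls held 96.5, 94.3 and 105 CPM of Sele. The Wnt modulator Sfrp2, the Wnt target Ccn4 and the Wnt-associated receptor Lgr5 had differences of -3.26 (SE 0.65), -3.12 (SE 0.46) and -3.14 (SE 0.30). Lrrc15, a surface protein of matrix-making fibroblasts, had -3.19 (SE 0.56). Pappa2, a protease of insulin-like growth factor binding proteins, averaged 10.6 ± 6.62 against 81.7 ± 43.3 CPM. The adhesion molecule Chl1 averaged 10.8 ± 5.24 against 99.7 ± 65.1 CPM and the kinesin Kif26b 8.89 ± 4.30 against 69.8 ± 25.8 CPM. Their differences were -2.88 (SE 0.53) and -2.89 (SE 0.39), and within Brx50 alone -0.94 and -1.98.

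Among 13 genes of bone-forming cells, 3 lay higher in the low class without overlap, all of them transcription factors. Among them were Sp7, which codes for osterix (3.48 ± 0.885 against 19.1 ± 13.8 CPM), and Dlx5 (3.85 ± 2.24 against 12.7 ± 3.02 CPM). Alpl, alkaline phosphatase, averaged 49.1 ± 21.7 against 167 ± 98.2 CPM, and Ibsp, bone sialoprotein, 25.6 ± 12.7 against 154 ± 174 CPM, with overlap. Bglap, osteocalcin, was 4.60 ± 3.09 against 6.91 ± 7.48 CPM and overlapped, as did Runx2 at 63.5 ± 18.0 against 87.5 ± 32.8 CPM. Summed, the list ran from 162 to 226 CPM in the high class and 327 to 1042 CPM in the low class. Of 10 osteoclast genes only Nfatc1, the factor that switches on the osteoclast programme, lay apart, at 102 ± 5.60 against 219 ± 53.4 CPM. The list median was -0.28, with 8 members lower and 2 higher in the high class. The sums, which include Nfatc1, were 197 to 264 CPM in the high class and 276 to 560.4 CPM in the low class, without overlap. Cathepsin K (Ctsk) averaged 14.9 ± 8.23 against 66.0 ± 39.5 CPM with overlap. Col11a1 (63.9 ± 12.9 against 317 ± 201 CPM) was the only one of 16 cartilage and joint genes without overlap. Acan, the aggrecan of cartilage, was 29.5 ± 21.1 against 102 ± 97.3 CPM. The marrow niche genes, which make the factors that hold stem cells in place, overlapped in 10 of 10. Cxcl12 averaged 343 ± 272 against 538 ± 346 CPM and Kitl 57.1 ± 32.1 against 139 ± 35.6 CPM.

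The lists of endothelium and of pericytes, which do not hold Sele, had negative medians but no member without overlap. Over 14 measured endothelial genes the median was -1.45, with Cdh5, VE-cadherin, at 249.9 ± 207 against 628 ± 237 CPM and Pecam1 at 201 ± 121 against 531 ± 157 CPM. The endothelial sums of 652 to 3921 CPM in the high class and 1584 to 5155 CPM in the low class overlapped. Over 12 genes of pericytes and smooth muscle the median was -1.54, all 12 lower in the high class, and the sums of 417 to 1649 and 1784 to 4736 CPM did not overlap. Myh11, the smooth muscle myosin, averaged 175 ± 159 against 605 ± 602 CPM and Pdgfrb 124 ± 76.4 against 342 ± 112 CPM. Fabp4 of fat cells and capillaries averaged 177 ± 154 against 354 ± 196 CPM, with all 7 measured fat cell genes overlapping.

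**Figure D3:**
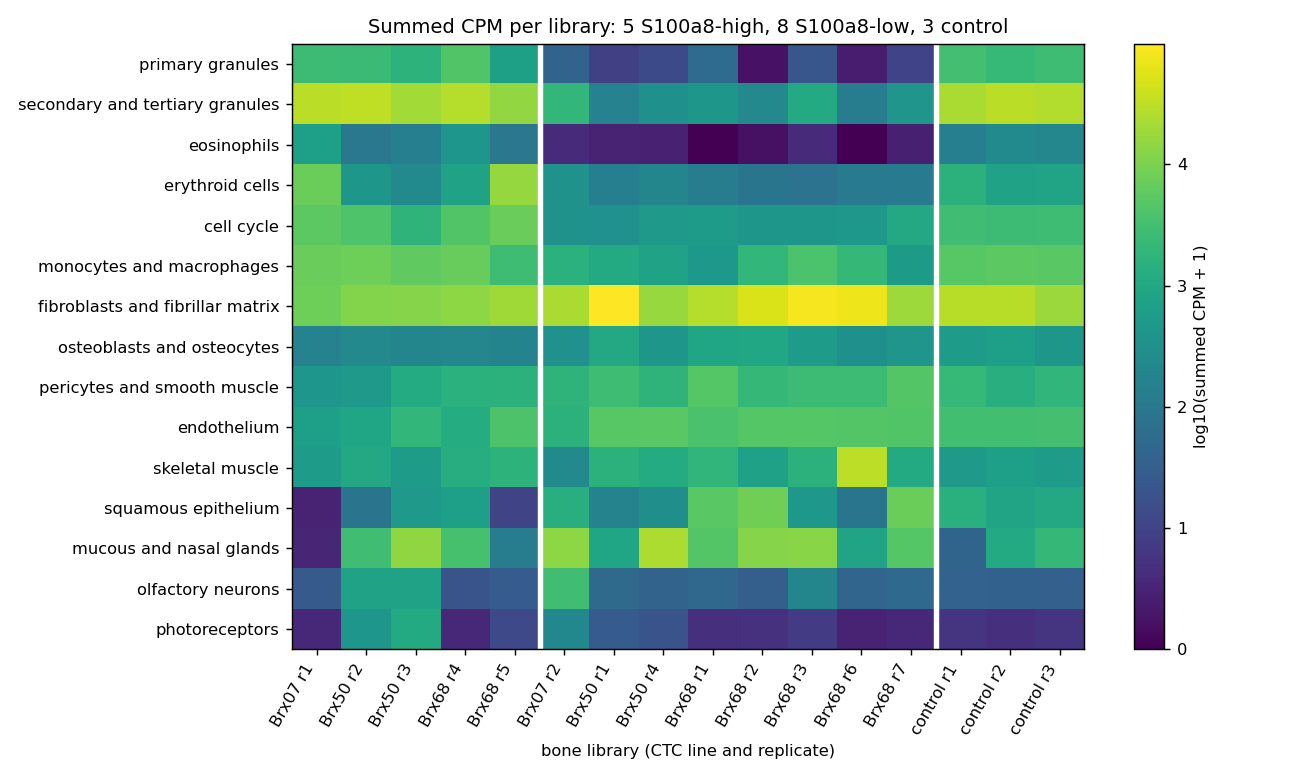
Heat map of log10(summed CPM + 1) for 15 gene lists (rows) in each bone library (columns), with white lines between the 5 S100a8-high, 8 S100a8-low and 3 control libraries. Primary granule sums are 687 to 4372 CPM in the high class, 0.792 to 54.5 CPM in the low class and 2194 to 3182 CPM in the controls, and the muscle sum of Brx68 replicate 6 (31511 CPM) stands out in its row.

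No gene in the lists of muscle, nerve, glia, eye and epithelium, 9 lists in all, had classes without overlap. Over 11 squamous epithelium genes the median was -2.93, all 11 lower in the high class, yet none lay apart, the median within Brx50 alone was -0.27, and the sums ran from 2.10 to 655 CPM and from 86.8 to 7986 CPM. Krt5, a keratin of basal epithelium, averaged 91.8 ± 111 against 837 ± 1078 CPM, and Epcam 26.8 ± 39.5 against 63.7 ± 54.9 CPM. Muc5b, a mucin of airway and gland, averaged 2164 ± 2381 against 7479.5 ± 6562 CPM. The mucous and nasal gland sums ran from 2.40 to 14772 CPM in the high class and from 839 to 24029 CPM in the low class. The controls held 40.6 to 2086 CPM. The lowest sum was that of Brx07 replicate 1, from the leg, and the highest that of Brx50 replicate 4. Acta1 of skeletal muscle averaged 237 ± 123 against 254 ± 361 CPM, and Omp of olfactory neurons 98.1 ± 134 against 117 ± 309 CPM. Their part in the results above was not tested.

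Inflammatory and stress genes did not share a direction. Cxcl1, a neutrophil attractant, was higher in the low class without overlap (75.3 ± 25.8 against 385 ± 306 CPM), whereas Cxcl2, another, was 476 ± 367 against 109.9 ± 78.6 CPM and Il1b 1009.7 ± 669 against 115 ± 128 CPM, both with overlap. Among 13 genes of hypoxia and glycolysis, the enzymes Ldha (373 ± 60.3 against 211 ± 43.1 CPM), Eno1 (95.9 ± 25.8 against 34.5 ± 14.7 CPM) and Pgk1 (50.9 ± 9.96 against 21.2 ± 6.13 CPM) were higher in the high class and Ndrg1 (133 ± 19.5 against 311 ± 90.0 CPM) lower, all without overlap. Over these 13 genes the median was -0.40, with 9 lower and 4 higher in the high class. Egr1, an immediate early transcription factor, averaged 1174 ± 546 against 3026 ± 375 CPM, without overlap. Fos averaged 1893 ± 1044 against 2978 ± 905 CPM, with overlap, and all 10 measured immediate early genes were lower in the high class (median -0.76). Within Brx50 alone that median was 0.27, with the other sign.

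Among signs of RNA content, only Malat1 lay apart between the classes. Malat1, a nuclear RNA, was 7002 ± 1204 CPM (SD, n = 5) in the high class and 16803 ± 10229 CPM (SD, n = 8) in the low class. The ranges of 5098 to 8211 and 9272 to 40433 CPM did not overlap, with the controls at 7543 to 9307 CPM. Neat1, another nuclear RNA, overlapped at 1822 ± 847 against 6402 ± 9977 CPM. Brx50 replicate 4 held the most of both, 40433 CPM of Malat1 and 30749.9 CPM of Neat1, and without it the low class averaged 2924 ± 1791 CPM of Neat1 (SD, n = 7). Genes of mitochondrial proteins took 0.707% ± 0.303 and 1.19% ± 1.13 of counts, from 7 of 13 measured. Their ranges of 0.375% to 1.13% in the high class and 0.155% to 3.88% in the low class overlapped. The predicted gene Gm26917 took 6.53% ± 1.62 against 4.81% ± 1.96 of counts, also with overlap. Mitochondrial ribosomal RNA took 0.000117% to 0.00146% of counts in the high class and 0% to 0.00412% in the low class, again with overlap. The controls held more of it than either class, 0.0239% to 0.0391%, and the reason was not tested. Whether the nuclear RNA bears on the matrix and granule genes was not tested.

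The bone controls lay above the S100a8-low class for most of the genes that were higher in the S100a8-high class. Of the 1248 such genes, all 3 controls stood above every S100a8-low library in 1166 (93.4%), and below every S100a8-high library in 35 (2.80%). Of the 698 genes higher in the low class the controls divided, lying below every low library in 369 (52.9%) and above every high library in 269 (38.5%). Both can hold for the same gene. These genes were picked for a gap between the classes, and the same shares over all measured genes were not taken. Tnn and Postn are examples of genes with control levels near the low class, at 1286 ± 635 and 1100.5 ± 367 CPM (SD, n = 3). The controls took no part in the choice of the classes. They differed from every exposed bone library in mitochondrial ribosomal RNA, as given above.

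**Figure D4:**
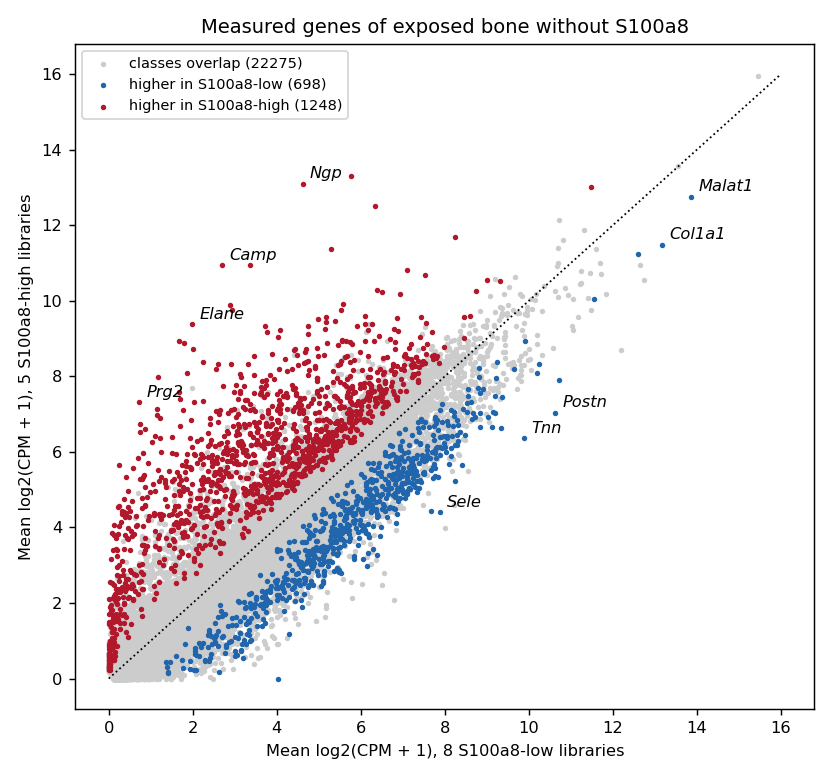
Mean log2(CPM + 1) of each measured gene in the S100a8-low class (n = 8, horizontal axis) and the S100a8-high class (n = 5, vertical axis), with 1 point per gene. Of 24221 genes, 1248 lie higher and 698 lower in the high class without overlap between libraries and are coloured red and blue, and the dotted line marks equal means.

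Granule and matrix lists were also compared within tumour lines. In Brx50, with 2 libraries of each class, 6800 genes were higher and 6781 lower in the high class without overlap, and in Brx68, with 2 high and 5 low libraries, 3245 and 2067. Fewer libraries leave more genes without overlap by construction, so these counts are not to be set against the 1248 and 698. The median over secondary and tertiary granule genes was 6.86 within Brx50 and 6.44 within Brx68, beside 6.15 over all lines. For fibroblasts and fibrillar matrix it was -1.82 and -1.29.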

How the data were processed

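Raw read counts of 43346 Ensembl mouse gene IDs in 30 libraries were deposited by the authors as 1 table. The submitters' processing notes name STAR 2.5.2b and HTSeq, with hg19, GRCh37, mm10 and GRCm38.p5 listed without a role. Annotation, strandedness and how human reads were set apart were not given in the sources used here, so overlapping, antisense and near-identical genes are uncertain. GENCODE M21 (GRCm38) gave symbols to 42462 IDs. The other 884 held 0.132% of counts. CPM used each library's total. Genes with at least 10 counts over the 13 exposed bone libraries were measured, which left 24221 without S100a8. Differences are means of log2(CPM + 1), with SE from the spread within classes.

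Members and the 39 gene lists (446 genes with repeats) were chosen with earlier results of these data known. Text names, in each direction, the 12 genes without overlap with the widest difference and a mean of at least 10 CPM in the higher class (no Gm or Rik symbols or pseudogenes), up to 4 of the most abundant members of each list, and marker genes. A few list members are not reported here by name. Exposed replicate numbers follow the order of deposit. Total counts and CTC line were compared by exact two-sided permutation tests at a threshold of 0.05. Alternatives were TMM (edgeR 4.0.16, R 4.3.3), DESeq2 1.42.0 size factors, upper quartile scaling, filters, a pseudocount of 0.1, S100a8 limits of 500 and 2000 CPM, class medians, edgeR fitted fold changes, single lines and each library left out. Totals without neutrophil and erythroid genes and a block for CTC line were added after seeing the data. Python 3.11.15, numpy 2.4.6 and pandas 2.3.3 were used.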

Additional observations from a re-analysis of the deposited data

Results flagged for a closer look

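Of 128 sets of libraries (a class, and a summed list, a named gene or the total counts), 8 had 1 library far from the rest, and chance marks about 1 in 20. The measure is the gap to the nearest library over the whole range, on the log2(CPM + 1) scale, or in counts for the total counts. In the S100a8-high class, Brx68 replicate 5 held 2765 CPM of monocyte and macrophage genes against 6035 to 7614 CPM in the other 4 (gap 0.771). Brx50 replicate 3 held 4122 CPM of cytosolic ribosome genes against 5803 to 6658 CPM (gap 0.713). Brx07 replicate 1 held 4.51 CPM of Sfrp2 against 21.0 to 37.2 CPM (gap 0.715).

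In the S100a8-low class, Brx07 replicate 2, from the skull, stood apart in 4 lists. It was low in adipocyte genes, 96.7 against 283 to 675 CPM (gap 0.551), and in endothelial genes, 1584 against 3649 to 5155 CPM (gap 0.707). It was high in olfactory neuron genes, 2933 against 31.1 to 191 CPM (gap 0.604), and in interferon response genes, 2560.3 against 283 to 772 CPM (gap 0.545). Brx68 replicate 6 held 31511 CPM of skeletal muscle genes against 229 to 1918 CPM (gap 0.569). Summed olfactory neuron genes were higher in the S100a8-high libraries within Brx50 and lower within Brx68, a difference between lines of 5.31 on the log2 scale that was not tested.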

How the results depend on the processing

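Scaling by TMM, DESeq2 size factors or upper quartile gave 1430 and 584, 1333 and 673, and 1109 and 737 genes higher in the S100a8-high and S100a8-low class, against 1248 and 698. S100a8 limits of 500 and 2000 CPM gave the same classes, as they had to, since no exposed bone library lay between 166 and 2275 CPM. Values under these limits equal the main ones and are counted in the 624 and 1092 below. Leaving out each library in turn gave 1267 to 1868 and 713 to 1165 genes, with 1121 lower genes without Brx50 replicate 3 and 1165 without Brx68 replicate 5. By construction these counts can only stay or rise when a library is left out, so the ranges could not show a fall. Total counts then differed by -216059 to 1381937 (exact permutation p = 0.242 to 0.913), the reversed value being that without Brx68 replicate 4. Of 624 values of named genes, 614 moved by less than the spread between libraries and 10 by more, and none changed sign. The named genes were picked for classes that do not overlap. Their sign therefore could not change with a library left out, a single line, class medians, a pseudocount of 0.1 or another S100a8 limit. The 10 were, within Brx50 alone, Prg2 5.16, Kif26b -1.98 and Chl1 -0.94, with a pseudocount of 0.1, Ctsg 8.17, Prg2 8.32, Krt71 -7.01 and Lgr5 -3.84, and as edgeR fitted fold changes, Prg2 8.09, Krt71 -12.7 and Lgr5 -3.99. Of 1092 values of lists, 1059 moved by less than that spread. Of all 1092, 42 had the other sign, in 12 lists, 9 of them within Brx50 alone and 33 under other settings. Within Brx68 alone, medians were 2.03 for granulocyte transcription factors and 5.13 for erythroid cells, with 3245 and 2067 genes apart. Within Brx50 alone (6800 and 6781 genes) they were 5.59 for mature neutrophils, 0.92 for erythroid cells, -0.13 for lymphocytes, -1.07 for niche stroma, 0.41 for adipocytes, 1.71 for neurons, 5.32 for olfactory neurons, 4.25 for photoreceptors, -0.27 for squamous epithelium, 1.65 for glandular epithelium, 3.57 for mucous glands, 0 for Hox genes, 1.70 for interferon response, -0.018 for hypoxia and glycolysis, 0.27 for immediate early genes and 1.52 for ribosomes. In that line the sign turned for lymphocytes, adipocytes, neurons, glandular epithelium, mucous glands and immediate early genes, and, by less than the spread, for megakaryocytes (-0.38), skeletal muscle (-0.20) and astrocytes and oligodendrocytes (1.41). With a pseudocount of 0.1 they were 7.99 for primary granules, 7.30 for secondary granules, 5.50 for mature neutrophils, 5.30 for eosinophils, 0.53 for megakaryocytes, 0.91 for lymphocytes and 1.51 for Hox genes. With a mean of at least 1 CPM they were 3.56 for eosinophils and -1.62 for osteoblasts, and with class medians 0 for Hox genes. As edgeR fitted fold changes they were 7.02 for eosinophils, 5.34 for erythroid cells, 0.68 for lymphocytes, -0.77 for osteoclasts and 4.56 for Hox genes. The cause was not tested. With the CTC line as a block, added after seeing the data, no list median or named gene moved by more than the spread. No paired analysis was possible because the labels give the exposed libraries no replicate numbers and only 1 pair within a line, the Brx07 leg and skull libraries, shares a label code. A count of 0 allows up to 3 counts, for counting error only.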

Other observations

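Hox genes of the posterior trunk and limb, which blood progenitors also transcribe, gave 2 of 12 genes without overlap. Hoxa9 held 5.71, 1.13, 1.65, 3.57 and 7.97 CPM in the S100a8-high libraries and had no count in any of the 8 S100a8-low libraries, at least 107-fold lower with 3 counts over the class as the limit. Hoxa7 averaged 2.07 ± 1.61 against 0.0122 ± 0.0346 CPM. Of the Hoxd cluster, Hoxd8 overlapped at 3.89 ± 3.26 against 6.29 ± 2.35 CPM, as did Hoxd9 at 1.45 ± 1.64 against 1.69 ± 0.470 CPM. Cytosolic ribosome genes were higher on average in the S100a8-high class in 17 of 17, with a median of 0.56, and all overlapped. Rplp0 averaged 670.3 ± 148 against 463 ± 255 CPM.

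Label codes recur across tissues, and the labels do not say what they mean. Code 83.2 is carried by Brx50 bone replicate 2 (S100a8-high), by a Brx50 brain library with 44.7 CPM of S100a9 and by a Brx50 lung library with 628 CPM. Code 84.2 is carried by Brx50 bone replicate 3 (S100a8-high), by a Brx50 lung library with 178 CPM of S100a9 and by Brx68 bone replicate 6 (S100a8-low). Code 99.2 is carried by Brx68 bone replicate 7 (S100a8-low) and by a Brx68 lung library with 245 CPM of S100a9. The control lung libraries held 558 and 537 CPM of S100a9.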
